A study of Mus musculus with 235 samples.

Results

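The 10 genes described here make and recycle glutathione or belong to the response controlled by the transcription factor NRF2. They are Gclc, Gclm, Gss, Gsr, Txnrd1, Srxn1, Nqo1, Osgin1, Abcc4 and Nfe2l2, out of 18146 genes measured. Each was represented by the probe set annotated with its symbol alone and, where several existed, by the one with the highest mean. Microarrays were run on RNA from the left liver lobe. The mice were females from 31 inbred strains and were 8 to 10 weeks old when the study began. Animals were gavaged daily on 3 days with isoniazid (100 mg/kg), a tuberculosis drug known for liver injury, or with its vehicle, sterile water, and were killed 24 h later. The 124 vehicle arrays were 4 per strain. The 111 isoniazid arrays were 4 in 22 strains, 3 in 5 strains and 2 in 4 strains, since 13 isoniazid animals had died in 9 strains (A/J, LG/J, LP/J, MA/MyJ, NON/LtJ, PL/J, RIIIS/J, SEA/GnJ and SM/J) and survivors alone were measured. The submitters coded 13 strains as showing fat accumulation (steatosis) under isoniazid and the other 18 as not. The code describes the strain and not the single animal. No transgene or engineered allele is given for any strain.

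Glutathione is a tripeptide that is abundant in hepatocytes, where it scavenges oxidants and is joined to reactive drug metabolites. Glutamate-cysteine ligase, formed by the catalytic subunit Gclc and the modifier subunit Gclm, carries out the rate-limiting step of its synthesis, and glutathione synthetase (Gss) completes the molecule. NRF2, encoded by Nfe2l2, is kept low by KEAP1, which targets it for degradation. When electrophiles or oxidants modify KEAP1, NRF2 accumulates, pairs with small MAF proteins and binds antioxidant response elements near genes such as Nqo1, Srxn1, Txnrd1, Gclc and Gclm. Its activity is set mainly at the level of the protein, so the level of its own mRNA is not a measure of that activity.

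Upstream sequences of Srxn1 and Osgin1 are shown because these genes gave the widest range of effects over strains and their mean effects were opposite in sign. They are the 250 bases before an annotated start in RefSeq on build GRCm38.p6, both on the plus strand, with each match to the searched motifs in capitals. The Srxn1 window is chr2:152105274-152105523 and the Osgin1 window is chr8:119436897-119437146.
Srxn1: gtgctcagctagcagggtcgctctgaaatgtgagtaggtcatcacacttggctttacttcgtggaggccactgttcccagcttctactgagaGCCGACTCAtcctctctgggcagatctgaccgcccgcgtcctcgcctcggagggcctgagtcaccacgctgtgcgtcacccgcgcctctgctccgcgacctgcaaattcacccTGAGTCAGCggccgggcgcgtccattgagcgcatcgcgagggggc
Osgin1: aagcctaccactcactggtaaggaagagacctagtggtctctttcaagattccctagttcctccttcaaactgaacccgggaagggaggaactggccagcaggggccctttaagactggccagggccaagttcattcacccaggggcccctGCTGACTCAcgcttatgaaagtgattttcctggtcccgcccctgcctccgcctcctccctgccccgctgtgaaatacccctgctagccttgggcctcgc
The motifs searched were TGACNNNGC and TGAGNNNGC, on both strands. Their letters differ at the fourth position, so the motifs cannot match the same bases on 1 strand. The Srxn1 window held TGAGTCGGC on the minus strand, 158 to 150 bases before the start, and TGAGTCAGC on the plus strand, 45 to 37 bases before it. The Osgin1 window held TGAGTCAGC on the minus strand, 99 to 91 bases before the start. Thus both genes carried the same 9 letters, which occurred in 114 of the 32851 windows of this length in the table. TGACNNNGC occurred in 10.2% of those windows, TGAGNNNGC in 14.4% and either in 23.0%. Of the 10 genes, 8 had a window, and 6 of these held a match: Srxn1, Osgin1, Gclm, Txnrd1, Abcc4 and Nfe2l2. These 8 genes had 11 windows, since Txnrd1 had 3, with a match in 1, and Abcc4 had 2. The count of genes is therefore not comparable with the shares of windows. Gss and Nqo1 held none in these windows, and Gclc and Gsr were not matched to the table. A match describes letters and not binding.

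The measured tissue was liver by its markers. All 10 hepatocyte markers had a mean of at least 11.22 log2 units over the arrays, the lowest being the asialoglycoprotein receptor Asgr1. On 21 arrays, 11 of vehicle and 10 of isoniazid animals in 19 strains, the log2 values had an SD of 2.10 to 2.20, below that of the other arrays (2.23 to 2.35). On these arrays each of the 10 genes was on average lower than its group mean, by amounts from 0.12 (Gclc) to 0.42 log2 units (Nqo1). Several results are therefore also given without them. A single array labelled NOD/LtJ vehicle correlated best with the NOR/LtJ mean, and the other 234 arrays with the mean of their own strain. The labels name separate animals, so p-values over strains measure the spread between strains.

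Isoniazid moved these genes in both directions. Over the 31 strains, 4 of the 10 genes fell (Gclc, Gclm, Osgin1 and Abcc4), 3 rose (Gss, Txnrd1 and Srxn1), and 3 did not pass the test (Gsr, Nqo1 and Nfe2l2), at an adjusted p under 0.05 in limma over all 18146 genes. In the same comparison 20.0% of all genes passed, 10.2% higher and 9.85% lower. At an unadjusted p under 0.05 the count was 9 of the 10, against 30.2% of all genes. The 10 genes were chosen with earlier results of these data known, so these shares are not a test of the set. The median effect of the 10 genes was 0.08 log2 units, against 0.00 for all genes. All changes were below 1.5-fold on average. The plot of effects by strain shows how far strains spread around each mean.

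**Figure D1:**
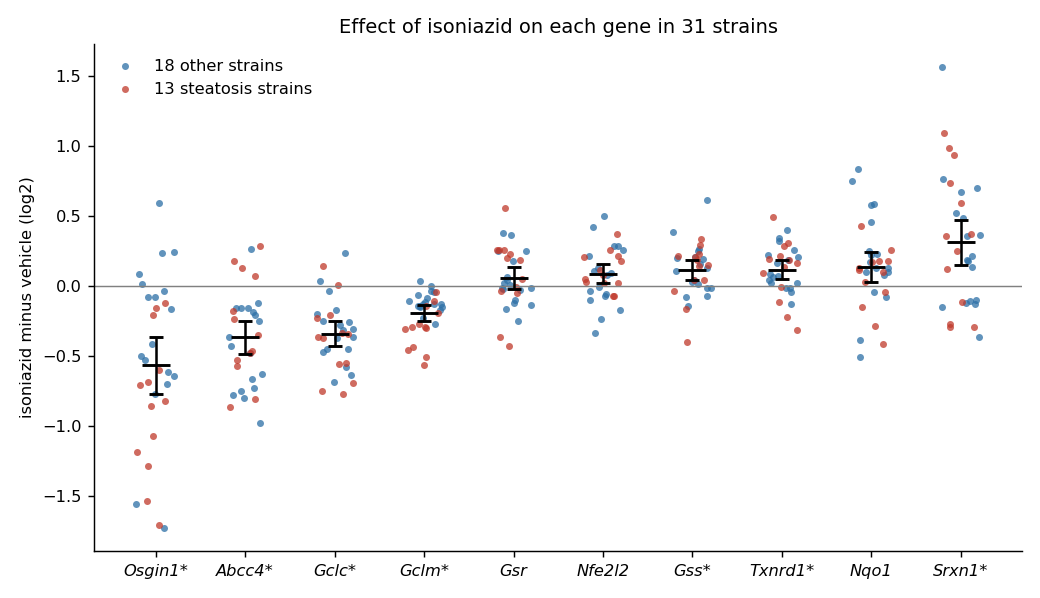
Effect of isoniazid on each of the 10 genes, as the isoniazid mean minus the vehicle mean of a strain in log2 units (vertical axis), for 31 strains. Each point is a strain, red for the 13 steatosis strains and blue for the 18 others, the black bar is the mean with its 95% interval, and an asterisk marks an adjusted p under 0.05. The genes run from Osgin1, with a mean of -0.57, to Srxn1, with a mean of 0.31, and every gene had strains on both sides of 0.

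The 2 subunits of the rate-limiting enzyme fell together, while the enzyme of the second step rose. For Gclc, vehicle strain means ran from 9.87 to 11.51 log2 units (median 10.73) and isoniazid means from 9.35 to 11.18 (median 10.35). These ranges overlap, but the isoniazid mean was the lower in 27 of 31 strains. The mean effect was -0.34 ± 0.04 (SE, n = 31 strains; limma adjusted p = 4.44e-07), a 1.26-fold decrease. For Gclm, vehicle means ran from 9.98 to 11.39 (median 10.88) and isoniazid means from 9.88 to 11.09 (median 10.75). Gclm was lower in 30 of 31 strains, C58/J being the exception at 0.04 (-0.10 without its 1 narrow vehicle array). Its mean effect was smaller, -0.19 ± 0.03 (SE; limma adjusted p = 3.87e-06), and its SD over strains was 0.15, the smallest of the 10 genes. Gss went the other way. Its vehicle means ran from 7.27 to 7.90 (median 7.65) and its isoniazid means from 7.43 to 8.03 (median 7.76). It was higher in 23 of 31 strains, by 0.11 ± 0.03 (SE; limma adjusted p = 0.0134), a 1.08-fold increase. This call was lost in limma without the animals numbered 3 (0.10, adjusted p = 0.0699) and without those numbered 4 (0.11, adjusted p = 0.0556). The second probe sets of these genes gave effects of the same sign, -0.38 for Gclc, -0.17 for Gclm and 0.16 for Gss, and passed the test when each of 34717 probe sets was tested on its own.

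Of the enzymes that recycle oxidised thiols, Srxn1 and Txnrd1 rose and Gsr did not pass. Srxn1 encodes sulfiredoxin, which restores overoxidised peroxiredoxins. Its vehicle means ran from 6.15 to 7.43 (median 7.04) and its isoniazid means from 6.50 to 8.61 (median 7.21). The effect of 0.31 ± 0.08 (SE; limma adjusted p = 0.00347) was the largest increase among the 10 genes and came from 21 of 31 strains. Other Srxn1 probe sets gave 0.46 and 0.26, which passed, and -0.05, which did not (adjusted p = 0.427). Txnrd1, the cytosolic thioredoxin reductase, was higher in 23 strains, by 0.12 ± 0.03 (SE; limma adjusted p = 0.00781). Its vehicle means ran from 6.17 to 10.01 (median 9.52) and its isoniazid means from 6.50 to 10.27 (median 9.65), the low end in both cases being PWK/PhJ. Its other probe sets, at mean levels of 3.97 and 2.64, gave 0.01 and -0.04, neither passing, and the mean of the 3 sets gave 0.03 (adjusted p = 0.387). Gsr, glutathione reductase, was higher in 17 strains and lower in 14. Its mean difference of 0.06 ± 0.04 had a 95% interval of -0.02 to 0.14 (limma adjusted p = 0.317).

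Among the other NRF2 targets, Osgin1 and Abcc4 fell. Osgin1 encodes a growth inhibitor induced by oxidative stress. Its vehicle means ran from 6.77 to 10.35 (median 9.03) and its isoniazid means from 6.27 to 10.15 (median 8.33). It was lower in 26 of 31 strains, by 0.57 ± 0.10 (SE; mean effect -0.57, limma adjusted p = 6.16e-05), a 1.48-fold decrease and the largest mean change of the 10. Abcc4 encodes the basolateral efflux pump MRP4, which exports conjugates and bile acids from hepatocytes. Its vehicle means ran from 4.57 to 6.81 (median 5.82) and its isoniazid means from 3.82 to 6.89 (median 5.30). It was lower in 26 strains, with a mean effect of -0.37 ± 0.06 (SE; limma adjusted p = 1.65e-05). Nqo1, the quinone reductase often used as a readout of NRF2, was higher in 23 strains, with a mean effect of 0.14 ± 0.05 (SE) that missed the threshold (limma adjusted p = 0.0568). Its vehicle means ran from 4.52 to 6.41 (median 5.63) and its isoniazid means from 5.02 to 6.50 (median 5.79). Without the 21 narrow arrays its effect was 0.15, which passed (adjusted p = 0.0238). It also passed without KK/HIJ (0.16, adjusted p = 0.0197) and in turn without NOR/LtJ, MRL/MpJ, LG/J, FVB/NJ or the animals numbered 3. In all, Nqo1 passed under 11 of 47 alternatives and missed the threshold under the other 36.

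The probe sets of the regulator itself disagreed. The Nfe2l2 set used here, at a mean level of 8.57, was higher in 21 of 31 strains by 0.09 ± 0.03 (SE; limma adjusted p = 0.0575). The other, at a mean level of 5.88, was lower in 26 strains, with an effect of -0.51 ± 0.10 (adjusted p = 0.000187 over 34717 probe sets). The strain effects of the 2 sets had an r of -0.27. The mean of both sets was -0.21 (adjusted p = 0.00142), so no direction is given for the Nfe2l2 mRNA. On the set used, the increase passed without NOD/LtJ (0.10, limma adjusted p = 0.0192), the strain with its lowest effect, and in turn without SEA/GnJ, C57BR/cdJ, C57Bl/6J, NOR/LtJ, C58/J or the animals numbered 1. In all, Nfe2l2 passed under 12 of 47 alternatives, among them the mean of both sets, where it fell. The plot of strain means shows each gene's level in vehicle animals and in isoniazid animals.

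**Figure D2:**
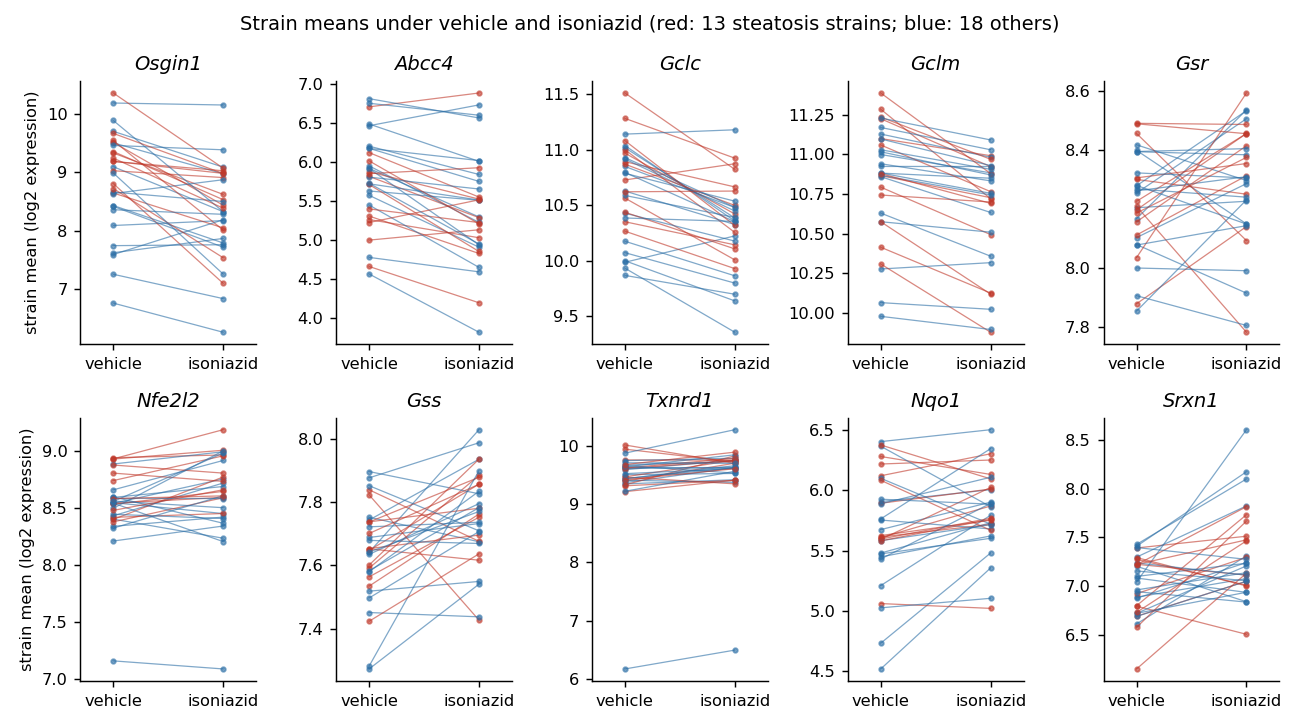
Mean log2 expression of each strain (vertical axis, scaled separately for each gene) under vehicle and isoniazid, joined by a line, red for the 13 steatosis strains and blue for the 18 others. Most lines descend for Gclc (27 of 31) and Gclm (30 of 31) and most ascend for Gss and Txnrd1 (23 of 31 each), and the low line of Txnrd1 is PWK/PhJ.

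Arrays of both treatments were scanned on each of 10 dates. For each date the treatments were compared after subtracting from every array the midpoint of its strain's vehicle and isoniazid means. These midpoints came from arrays of all dates, and the dates held different strains, so the 10 values are not separate tests. Gclc, Gclm, Osgin1 and Abcc4 were lower under isoniazid on each of the 10 dates, with effects of -0.55 to -0.15 for Gclc and -0.84 to -0.39 for Osgin1. Gss, Txnrd1, Srxn1 and Nqo1 were higher on 9 dates and lower on 1. Markers of another liver cell moved with the treatment. Of 16 macrophage markers, 10 fell and 0 rose, where 9.85% of all genes fell and 10.2% rose. Among the falls were the receptor Csf1r (-0.28), the Kupffer cell protein Cd5l (-0.28), lysozyme Lyz2 (-0.26) and Mpeg1 (-0.22). In steatosis strains alone 3 of the 16 fell (4.47% of all genes), and in the other strains 0 (4.13%). The summed level of the 16 markers ran from 10.73 to 13.02 log2 units in vehicle strain means. In isoniazid strain means it ran from 10.31 to 13.25, and it was lower in 24 strains. The dimmest of these markers, Timd4, had a mean of 4.78. The part of these cells in the falls of Gclc, Gclm, Osgin1 and Abcc4 was not tested, and in bulk tissue fewer cells of a type and less RNA per cell cannot be told apart.

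Within single strains, 23 of the 310 pairs of a member gene and a strain passed, 14 lower and 9 higher (limma, adjusted over all genes within each strain). Over all genes 2.00% of such pairs passed, 0.723% lower and 1.27% higher. Gclc accounted for 6 of them, in NZW/LacJ (-0.77), BUB/BnJ (-0.75), NOR/LtJ (-0.69), NOD/LtJ (-0.68), AKR/J (-0.63) and C58/J (-0.58). In NZW/LacJ the 4 vehicle animals had Gclc at 11.01, 11.02, 11.10 and 11.20 and the 4 isoniazid animals at 10.16, 10.51, 10.11 and 10.49. The groups did not overlap, and the decrease was 1.70-fold (limma adjusted p = 0.000855). At the other end Gclc was higher by 0.24 in 129S1/SvImJ and by 0.15 in BALB/cJ, neither passing. Gclm fell in BUB/BnJ (-0.56), NZW/LacJ (-0.51), NOR/LtJ (-0.46) and DBA/2J (-0.43). In BUB/BnJ its vehicle animals had 11.60, 11.31, 10.94 and 11.28 and its isoniazid animals 10.81, 10.58, 10.86 and 10.63, without overlap. All 4 are steatosis strains. In NOR/LtJ 2 of the 4 isoniazid arrays were narrow ones, and without them the Gclm effect there was -0.11 (limma adjusted p = 0.964) and the Gclc effect -0.52 (adjusted p = 0.588).

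Srxn1 rose in 4 strains. In PWK/PhJ its vehicle animals had 6.64, 7.06, 7.18 and 7.28 and its isoniazid animals 8.12, 8.45, 8.86 and 8.99. The groups were far apart, and the effect of 1.56 was a 2.96-fold increase (adjusted p = 2.22e-07). The others were DBA/2J (1.09), NZW/LacJ (0.98) and BALB/cJ (0.94). In BALB/cJ the rise rested on uneven animals, with isoniazid values of 7.23, 9.29, 6.77 and 7.64 against vehicle values of 6.88, 6.95, 6.85 and 6.51. At the other end C57Bl/6J (-0.36), FVB/NJ (-0.29) and CBA/J (-0.29) did not pass. Each of these strains had 1 narrow isoniazid array, and without it the effect was -0.032 in C57Bl/6J, -0.22 in FVB/NJ and -0.15 in CBA/J. Osgin1 fell in DBA/2J (-1.70), NOD/LtJ (-1.56), LG/J (-1.53) and NOR/LtJ (-1.28). In DBA/2J its vehicle animals had 8.87, 8.20, 9.66 and 8.48 and its isoniazid animals 7.44, 7.04, 6.80 and 7.14, a 3.25-fold decrease without overlap (adjusted p = 0.00139). Its lowest effect was in SM/J (-1.72), which had 2 isoniazid animals, at 6.90 and 7.62, and missed the threshold (limma adjusted p = 0.0900). Without the narrow arrays the NOR/LtJ call was lost (-1.13, adjusted p = 0.608) and the SM/J effect passed (adjusted p = 0.0486). SM/J itself had 0 narrow arrays and its effect stayed at -1.72, so this call changed only through the shared estimate of spread and the adjustment. Its highest was in PWK/PhJ (0.59), which did not pass either. Nqo1 rose in C57BR/cdJ (0.84) and C58/J (0.75), the strains with its lowest vehicle levels. The vehicle level is part of the effect itself, so a link between them was not tested. Without its 1 narrow vehicle array the C58/J effect was 0.68. The remaining calls were Gss (0.62) in PWK/PhJ, Gsr (0.56) in NZW/LacJ and Txnrd1 (0.50) in DBA/2J, each a rise. Without the narrow arrays 19 of the 23 calls were kept. The 4 lost were the 3 in NOR/LtJ and Txnrd1 in DBA/2J (0.43, limma adjusted p = 0.0931), and the 3 gained were Osgin1 in SM/J, Gss in 129S1/SvImJ (0.39) and Txnrd1 in PWK/PhJ (0.47). Like SM/J, 129S1/SvImJ had 0 narrow arrays. Abcc4 and Nfe2l2 passed in no strain, at 8 and 2 strains with an unadjusted p under 0.05.

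DBA/2J and NZW/LacJ each had 2 of the genes lower and 2 higher. In DBA/2J Gclm and Osgin1 fell while Srxn1 and Txnrd1 rose, and in NZW/LacJ Gclc and Gclm fell while Srxn1 and Gsr rose. Of all genes, 15.1% passed in PWK/PhJ, 12.7% in NZW/LacJ, 5.76% in DBA/2J, 5.09% in NOR/LtJ and 4.92% in C58/J. In the other strains with a called member gene the share was 2.96% (LG/J), 2.72% (AKR/J), 1.55% (BALB/cJ), 1.15% (C57BR/cdJ), 0.788% (NOD/LtJ) and 0.226% (BUB/BnJ). The interaction of strain and treatment tests whether effects differ between strains. It was called for Srxn1 (F = 3.35, limma adjusted p = 1.25e-05), Osgin1 (F = 2.25, adjusted p = 0.00679) and Gsr (F = 1.84, adjusted p = 0.0485), while 17.0% of all genes passed. Gclc (adjusted p = 0.0503) and Nqo1 (adjusted p = 0.0536) lay just outside. Without the 21 narrow arrays Srxn1 and Osgin1 still passed, Gsr did not (adjusted p = 0.262), and Nqo1 (adjusted p = 0.0204) and Gss (adjusted p = 0.0432) did. Gsr was also lost without the animals of any 1 number (adjusted p from 0.134 to 0.243) and without the array that matched another strain (adjusted p = 0.0505). Osgin1 was lost without the animals numbered 1 (limma F = 1.75, adjusted p = 0.122), and Nfe2l2 passed without those numbered 3 (F = 2.12, adjusted p = 0.0254).

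**Figure D3:**
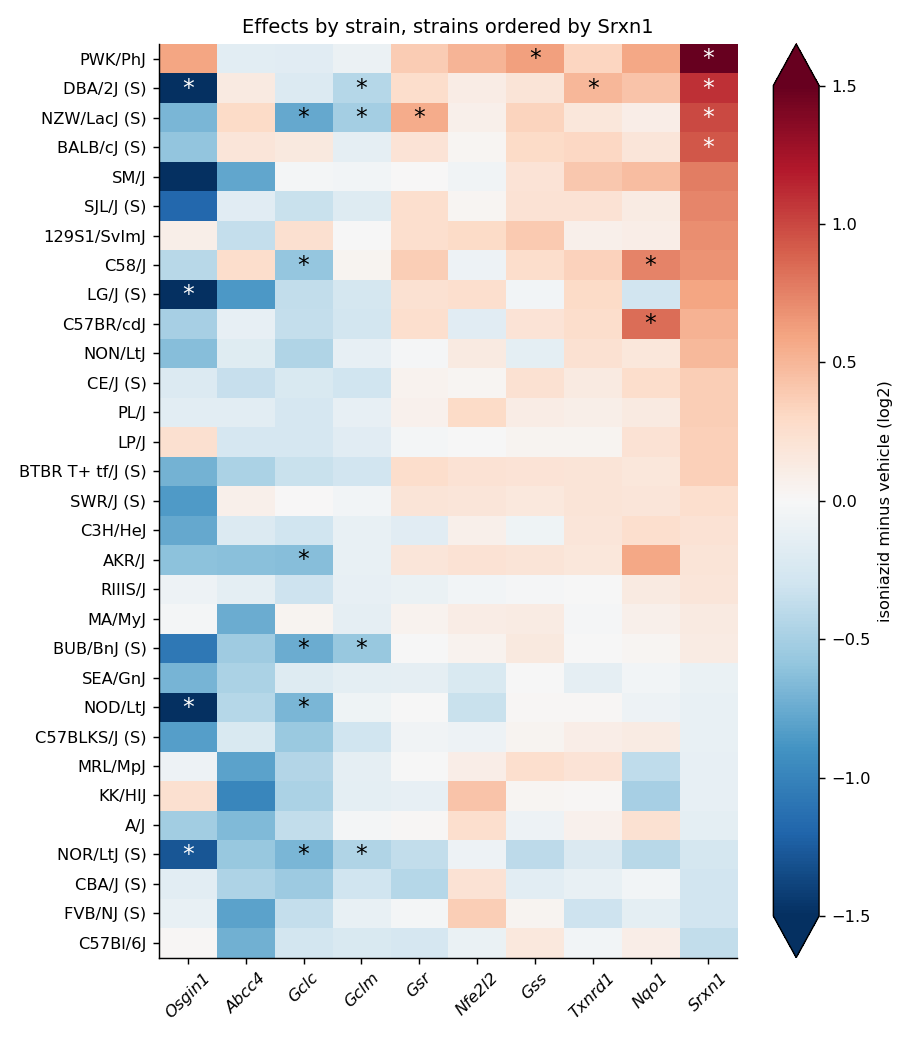
Isoniazid minus vehicle (log2, colour) for each of the 10 genes (columns, ordered by mean effect) in each of 31 strains (rows, ordered by Srxn1), with (S) after the 13 steatosis strains and an asterisk where the effect passed within that strain. Srxn1 runs from 1.56 in PWK/PhJ to -0.36 in C57Bl/6J (-0.032 without its narrow array), Osgin1 reaches -1.72 in SM/J, which has no asterisk, and the colour scale is limited to 1.5 in either direction.

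The steatosis and other strains were compared to see whether the response of these genes went with fat accumulation. In the 13 steatosis strains 4 genes fell (Gclc -0.38, Gclm -0.30, Osgin1 -0.84 and Abcc4 -0.29) and 0 rose, where 10.2% of all genes passed, 5.74% higher and 4.47% lower. In the 18 others 3 fell (Gclc -0.31, Gclm -0.11 and Abcc4 -0.42) and 0 rose, where 8.28% passed, 4.16% higher and 4.13% lower. Without the 21 narrow arrays 8 passed in the 18 strains, with Srxn1 (0.35), Nqo1 (0.23), Txnrd1 (0.14) and Gss (0.13) higher and Osgin1 (-0.38) lower besides the 3. More of all genes passed in that setting too, so the 8.28% is not the share to set beside these 8. In steatosis strains Srxn1 missed the threshold (0.35, limma adjusted p = 0.0705) and passed as a rise without the narrow arrays (0.33, adjusted p = 0.0474). It also passed in turn without CBA/J, FVB/NJ or NOR/LtJ, without PWK/PhJ, which is not a steatosis strain, and without the animals numbered 1 or 3. In all, Srxn1 passed there under 10 of 47 alternatives. The Abcc4 call in steatosis strains was lost in limma without LG/J (-0.24, adjusted p = 0.102), the steatosis strain with a death. It was also lost in turn without BTBR T+ tf/J, BUB/BnJ, CBA/J, CE/J, FVB/NJ or NOR/LtJ, and without the animals of any 1 number. In the 18 others the Gclm call was lost without the animals numbered 2 (-0.10, limma adjusted p = 0.0986). It was also lost when both Gclm probe sets were averaged (adjusted p = 0.113), with strains without deaths alone (adjusted p = 0.215) and with a robust fit with a trend (adjusted p = 0.0502). Osgin1 missed the threshold there (-0.37, adjusted p = 0.0571) and passed without PWK/PhJ (-0.42, adjusted p = 0.0244), and in turn without KK/HIJ, LP/J or the steatosis strain DBA/2J, which entered by the shared estimate of spread. In all, Osgin1 passed in the 18 strains under 8 of 47 alternatives. No member gene and no other gene passed in the difference between the groups (0 of 18146, limma; 491, or 2.71%, at an unadjusted p under 0.05).

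Among the 10 genes, Gclm and Osgin1 had an unadjusted p under 0.05 for that difference. The Gclm effect in steatosis strains ran from -0.56 to -0.04 (median -0.29) and in the others from -0.27 to 0.04 (median -0.12). All 13 steatosis strains were below 0, and the ranges overlap. The difference was -0.19 (95% interval -0.28 to -0.09, unadjusted p = 0.000438, adjusted p = 1.00). The Osgin1 effect ran from -1.70 to -0.12 (median -0.82) in steatosis strains, again below 0 in all 13, and from -1.72 to 0.59 (median -0.29) in the others, where 13 of 18 were below 0. The difference was -0.47 (95% interval -0.86 to -0.09, unadjusted p = 0.0177, adjusted p = 1.00). For Srxn1 the difference was 0.06, with an interval of -0.27 to 0.39, and for Gclc -0.08, with an interval of -0.26 to 0.10. The 9 strains with deaths differed from the 22 others by no gene at the adjusted threshold, in the isoniazid effect (0 of 18146 in limma; 422, or 2.33%, at an unadjusted p under 0.05) or in the vehicle level (0 in limma; 1028, or 5.67%). None of the 10 genes had an unadjusted p under 0.05 in either. The Gclc effect was -0.24 in the 9 strains with deaths and -0.38 in the others, a difference of 0.13 with an interval of -0.06 to 0.33.

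Among animals given vehicle alone, strains differed in all 10 genes (limma F test), as they did in 53.4% of all genes. The F was highest for Txnrd1 (33.3) and Gclm (15.8), followed by Gclc, Osgin1 (9.74), Nqo1 (8.33), Abcc4 (7.14), Nfe2l2 (5.07), Srxn1 (2.95), Gsr (2.29) and Gss (2.18). The order of strains was gradual. Of the 30 pairs of neighbours in each gene's order, 1 was farther apart than the SD between animals of a group for Txnrd1, Nfe2l2, Srxn1 and Gclm, and 0 for each of the other 6 genes. The Gss call was lost in limma without the animals numbered 2 (adjusted p = 0.0795) and without those numbered 4 (adjusted p = 0.0776). Txnrd1 stood at 6.17 in PWK/PhJ and between 9.21 and 10.01 in the 30 other strains. The 2 other Txnrd1 probe sets, with PWK/PhJ at 3.87 and 2.63, had mean levels near or below the array medians (3.96 to 4.21), where a gap of this size could not appear. PWK/PhJ, derived from wild mice, also had the lowest Gclc (9.87), Gclm (9.98) and Gsr (7.85), and was the lowest on the second probe set of each of the 3 genes too. The probes follow a reference sequence, and whether a sequence variant lies under them was not tested. Nfe2l2 was lowest in C58/J, at 7.16, where the vehicle animals had 7.11, 7.47, 5.93 and 8.12, and no other strain was below 8.21. On the second Nfe2l2 probe set C58/J stood at 6.37, above the median of the other strains (6.09). C58/J also had the lowest Gss (7.27) and the highest Srxn1 (7.43). C58/J and PWK/PhJ each had 1 narrow vehicle array, a kind on which all 10 genes were lower on average. The levels given here include these arrays. Osgin1 had a 12.0-fold range, from 6.77 in C57BR/cdJ to 10.35 in NOR/LtJ, with C58/J (7.26) and PWK/PhJ next to the bottom and MA/MyJ (10.18) and NOD/LtJ (9.88) next to the top. Nqo1 ran from 4.52 in C57BR/cdJ and 4.73 in C58/J to 6.41 in C57Bl/6J, Abcc4 from 4.57 in MA/MyJ to 6.81 in LP/J, and Gclc up to 11.51 in NOR/LtJ.

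**Figure D4:**
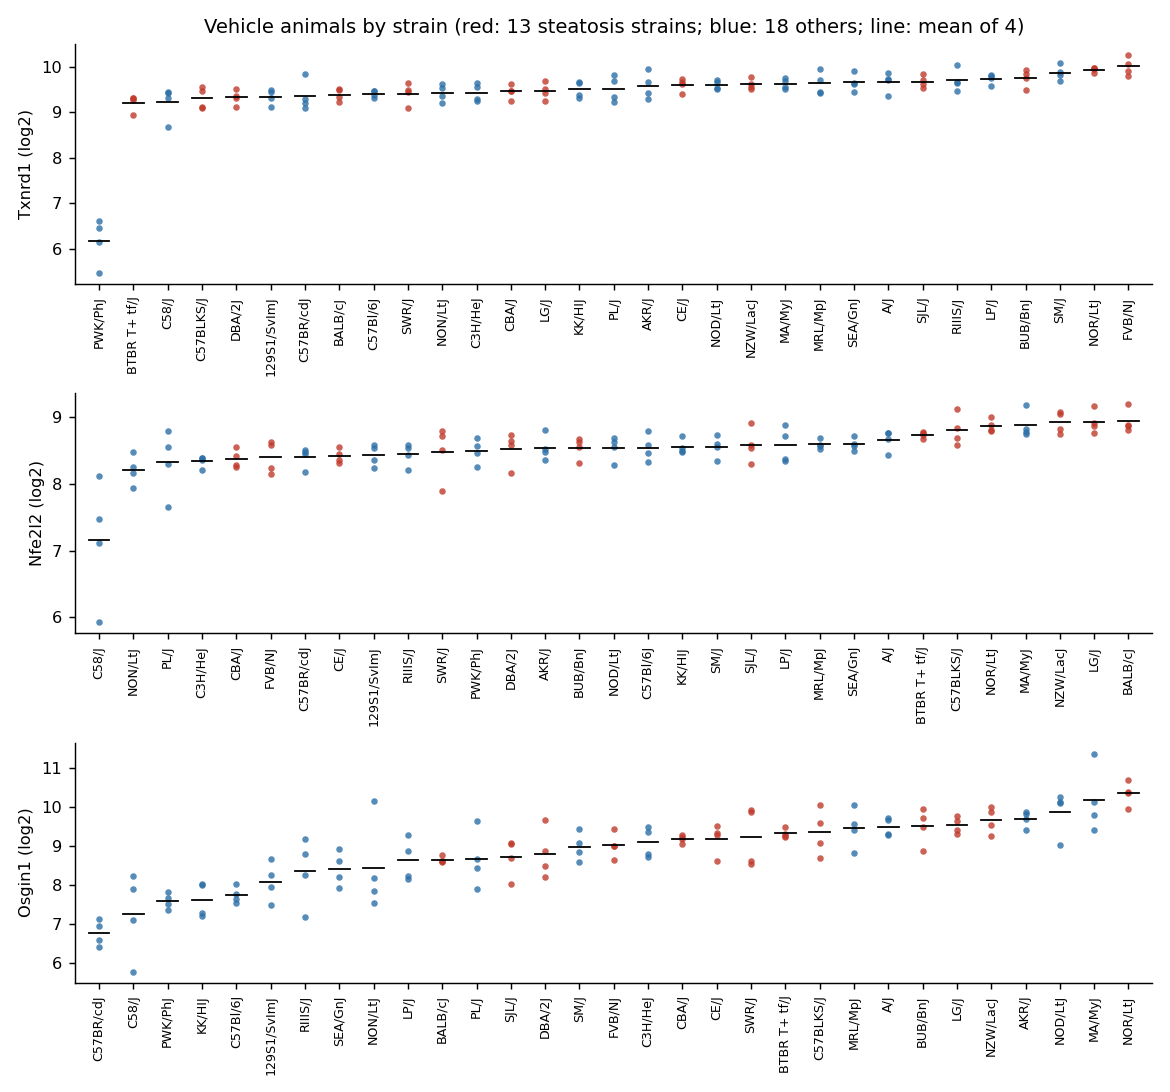
Log2 expression of Txnrd1, Nfe2l2 and Osgin1 (vertical axes) in the 4 vehicle animals of each strain, strains ordered by their mean (line), red for the 13 steatosis strains and blue for the 18 others. PWK/PhJ lies apart for Txnrd1 at 6.17, C58/J is low and uneven for Nfe2l2 with a mean of 7.16, and Osgin1 runs from 6.77 to 10.35. PWK/PhJ and C58/J each include 1 narrow array.

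In vehicle animals the steatosis strains were compared with the others to see whether levels without the drug went with the steatosis code of the strain. No gene passed (0 of 18146, limma; 737, or 4.06%, at an unadjusted p under 0.05). Osgin1 ran from 8.65 to 10.35 (median 9.24) in steatosis strains and from 6.77 to 10.18 (median 8.53) in the others. The ranges overlap, but the 10 lowest strains all lay outside the steatosis group. The difference was 0.70 (95% interval 0.14 to 1.26, unadjusted p = 0.0163, adjusted p = 0.988). Nfe2l2 was 0.22 higher on the set used (unadjusted p = 0.0474, adjusted p = 0.988), with C58/J among the other strains. With the mean of its probe sets the difference was -0.027, so no direction is given. Gclc was 0.28 higher, with an interval of -0.01 to 0.57 (unadjusted p = 0.0549).

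The effects of several genes went together from strain to strain. Over 31 strains, 16 of 45 pairs of the 10 genes were correlated at an adjusted p under 0.05 (permutation tests with 100000 resamples, adjusted over the 45 pairs), all positively. The share of correlated pairs among all genes was not determined. Whether 16 of 45 is more than among other genes is therefore not known. Of these, 14 were among the 15 pairs of Srxn1, Gsr, Txnrd1, Gss, Nqo1 and Abcc4. The highest were Gsr with Srxn1 (Pearson r = 0.79, Spearman rho = 0.80) and Txnrd1 with Srxn1 (r = 0.78, rho = 0.80). For both pairs the permutation p was 1e-05, which is the smallest that 100000 resamples can give, and the adjusted p was 0.00015. Without the 2 strains farthest from the median of the first gene, r was 0.77 and 0.76. Abcc4, which fell on average, belonged to the same group, with an r of 0.59 with Srxn1 (rho = 0.61, permutation p = 0.00051, adjusted p = 0.00382). Strains with a larger Srxn1 effect thus tended to have a smaller fall of Abcc4. Gclc and Gclm were correlated with each other (r = 0.47, rho = 0.33, permutation p = 0.00651, adjusted p = 0.0209) and with none of these genes at the threshold. The rank correlation of that pair did not pass (permutation p = 0.0651, adjusted p = 0.169). Osgin1 was correlated with Nfe2l2 alone (r = 0.43, rho = 0.33, permutation p = 0.0159, adjusted p = 0.0448), which also missed it by rank (permutation p = 0.0678, adjusted p = 0.169). Inside the group of 6, Gss with Nqo1 (permutation p = 0.026, adjusted p = 0.0835) and Txnrd1 with Abcc4 (permutation p = 0.0156, adjusted p = 0.054) missed it by rank too.

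All genes of a strain share the same arrays, and all 10 genes were on average lower on the narrow arrays. Without them 9 pairs passed, 8 of which were among the 16. Gsr with Srxn1 was then 0.67 and Txnrd1 with Srxn1 0.78, while Gclc with Gclm was 0.42 (adjusted p = 0.0639) and Srxn1 with Nqo1 0.37 (adjusted p = 0.114). The pair that passed only then was Abcc4 with Nfe2l2, at -0.50. Osgin1 with Nfe2l2 was 0.37 without these arrays (permutation test, adjusted p = 0.114), and it passed under 5 of 10 alternatives. Both pairs with Nfe2l2 rest on 1 of its 2 probe sets, which disagreed. The pairing of effects was also described against all genes over the 31 strains. Srxn1 was most like the GTPase Arf1 and the proteasome subunit Psmc5 (r = 0.90 each), and Gsr like the proteasome subunit Psmb5 and the kinetochore protein Zwint (0.89 each). Txnrd1 was most like the splicing factor Puf60 (0.86) and Wdr77 (0.85), and Gss like Cystm1 (0.84) and the annexin Anxa7 (0.82). Gclm was most like Prkaa2, a catalytic subunit of AMP-activated kinase (0.76), and Acsm5 (0.61). Gclc was most like Csad, an enzyme of taurine synthesis from cysteine, and Pisd-ps3 (0.71 each). Nqo1 was most like Pir (0.75) and Ddx56 (0.74), Osgin1 like Lcat (0.72) and the glutathione peroxidase Gpx1 (0.64), Abcc4 like Nsmce1 and Trdmt1 (0.70 each), and Nfe2l2 like Gnas and the sirtuin Sirt4 (0.72 each). These r are the highest of 18146 and carry no test.

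**Figure D5:**
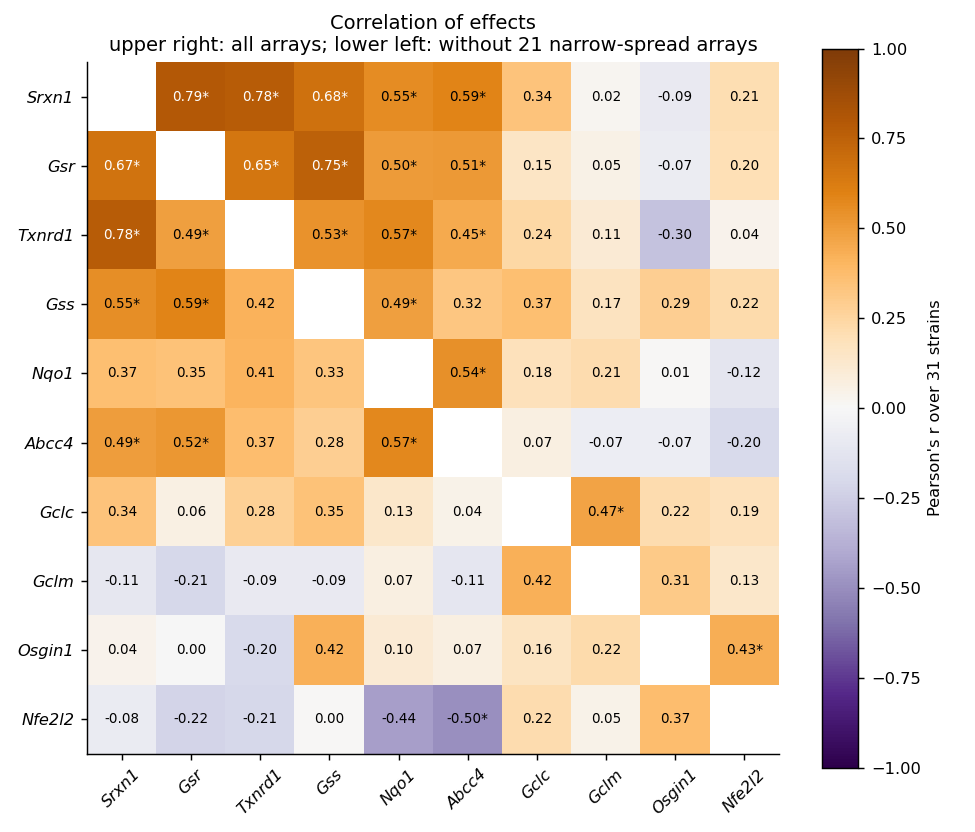
Pearson's r (number and colour) between the isoniazid effects of each pair of the 10 genes over 31 strains, with all arrays in the upper right and without the 21 narrow-spread arrays in the lower left. An asterisk marks an adjusted p under 0.05 in a permutation test, 16 pairs above and 9 below the diagonal, and Srxn1, Gsr, Txnrd1, Gss, Nqo1 and Abcc4 form the block of high values at the upper left.

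Other genes of the same pathways also moved in both directions. The lists in this and the following paragraphs were chosen with earlier results of these data known. A share above that of all genes is therefore not a test of a pathway. Among 39 other NRF2 targets, 5 rose and 14 fell over the 31 strains, so 48.7% passed against 20.0% of all genes, with a median effect of -0.05. Pgd, the dehydrogenase of the pentose phosphate pathway that supplies NADPH, rose by 0.41 (limma adjusted p = 1.01e-05, higher in 27 strains). Tkt, of the same pathway (-0.18), the epoxide hydrolase Ephx1 (-0.25) and biliverdin reductase Blvrb (-0.23) fell. Of 34 genes of glutathione turnover and cysteine supply, 6 rose and 7 fell (38.2%, median 0.01). Betaine-homocysteine methyltransferase Bhmt rose in all 31 strains, by 0.29 (adjusted p = 2.80e-06), and glycine N-methyltransferase Gnmt (0.21) and the aminopeptidase Lap3 (0.27) rose in 29. Chac1, which degrades glutathione, was lower in 27 strains, with an effect of -0.47 (adjusted p = 1.66e-06).

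Of 18 regulators of NRF2, 4 rose and 1 fell (27.8% against 20.0% of all genes, median 0.03). Keap1, the adaptor that holds NRF2 low, rose by 0.12 (adjusted p = 0.000427), and its binding partner Dpp3 by 0.22. Park7 rose by 0.26 in 30 strains, and the kinase Fyn fell (-0.16). Of 14 genes of the thioredoxin system, 3 rose and 3 fell (42.9%, median 0.00). Mitochondrial thioredoxin Txn2 (0.25) and Prdx2 (0.13) rose, and the reductases Txnrd2 (-0.27) and Txnrd3 (-0.26) fell, while Txnrd1 had risen. No gene of these 4 lists passed in the difference between steatosis and other strains.

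Cell type markers are given beside the 20.0% of all genes that passed over the 31 strains. Hepatocyte markers gave 2 up and 1 down of 10 (Cps1 0.17, Asgr1 0.10, Hnf4a -0.20). Of 11 pericentral hepatocyte markers 3 rose and 6 fell, among them Cyp1a2 (0.34), Oat (0.28), Rhbg (0.22) and Slc1a2 (-0.28). Of 8 periportal markers 1 rose (Aldh1b1, 0.37) and 1 fell (Ctsc, -0.34). Of the other liver cells, where 9.85% of all genes fell, 3 of 12 endothelial markers fell (Stab2 -0.30, Kdr -0.13, Tie1 -0.13), as did 1 of 10 stellate cell (Reln, -0.15), 1 of 6 bile duct (Sox9, -0.14), 1 of 10 T and NK cell (Gzmb, -0.15), 2 of 7 B cell (Cd79b -0.16, Ms4a1 -0.13), 1 of 8 neutrophil (S100a9, -0.23) and 2 of 6 red cell markers (Alas2 -0.21, Hbb-b2 -0.20). A single call in a list of 8 or 10 is close to that share. None of the markers of these other liver cells passed as higher, macrophage markers included.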

How the data were processed

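Per the submitters' processing notes, the deposited log2 expression levels of 44721 probe sets on 235 arrays were made by RMA in Affymetrix Power Tools. RMA corrects background, normalises arrays by quantiles and summarises probes. Software versions were not given in the sources used here. Medians of the arrays ran from 3.96 to 4.21, and 0 pairs of arrays were identical. The platform annotation paired 34717 probe sets with 1 symbol, 872 with several and 9072 with none, and 60 were controls. Of 18146 genes each was taken at its probe set of highest mean; 8949 genes had more than 1. Levels of different probe sets are not comparable.

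Tests used limma 3.58.1 in R 4.3.3, two-sided, with Benjamini-Hochberg adjustment over all genes and a threshold of 0.05. Over strains, the replicate was the strain, as its isoniazid minus vehicle mean or its vehicle mean. Effects within strains, their interaction and vehicle differences came from a fit with 62 groups and 173 residual degrees of freedom. Both groups of strains share 1 estimate of spread. The script was tested on simulated data. The number of arrays limits the precision.

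Members and the 15 other lists (209 of 239 entries found) were chosen with earlier results of these data known. All 10 members are named. From each other list at most 4 genes per comparison with the smallest p among those that passed are named, and for each member the 2 genes with the most similar strain effects. Alternatives covered scaling, probe sets, dim genes, narrow arrays, scan date, weights, deaths, animals as replicates, the replicate block and leaving out each animal number or strain. Leaving out 1 mismatched array and testing each probe set were chosen after seeing the data.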

Additional observations from a re-analysis of the deposited data

Results flagged for a closer look

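For the 3 highest and 3 lowest strains of each gene's effect, 111 sets of 4 animals were examined for a single animal far from the other 3, and 5 had one. Chance gives about 1 in 20 sets. Srxn1 in isoniazid C57Bl/6J, the strain with its lowest effect, had 1 animal at 5.84 and the others from 7.09 to 7.22; without its narrow array the effect was -0.032. Osgin1 in vehicle NOD/LtJ, where it fell, had 1 animal at 9.03 and the others from 10.10 to 10.27. Gsr in isoniazid CBA/J, the strain with its lowest effect, had 1 animal at 7.17 and the others from 7.92 to 8.07; without its narrow array the effect of -0.43 was -0.22. Txnrd1 in vehicle C58/J had 1 animal at 8.68 and the others from 9.32 to 9.44. Nfe2l2 in vehicle C57BR/cdJ had 1 animal at 8.17 and the others from 8.45 to 8.50.

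The isoniazid effect differed between strains by limma's interaction F test for Srxn1 (adjusted p = 1.25e-05), Osgin1 (adjusted p = 0.00679) and Gsr (adjusted p = 0.0485).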

How the results depend on the processing

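Requiring a 1.5-fold change besides the adjusted p left 54 genes and 0 of the 10 over 31 strains, 98 and 1 in steatosis strains, and 34 and 0 in the others. With animals as replicates, 3605 genes passed in steatosis strains, 2994 genes and 8 of the 10 in the others, 35 genes in the difference, 1957 genes and 7 of the 10 in the vehicle difference by steatosis, and 2143 genes and 1 of the 10 in that by deaths. In strains without steatosis 632 genes passed when strains with deaths were left out, and 2311 genes and 8 of the 10 without narrow arrays. There 6 of the 10 passed with arrays centred, 5 with the mean of probe sets and 5 without dim genes. The interaction was called for 5 of the 10 with the mean of probe sets and for 5 without dim genes, and 9 correlated pairs passed without narrow arrays. The count of all genes also moved with the setting. Over all alternatives it ran from 34 to 2994 in strains without steatosis (1503 in the main setting). For the interaction it ran from 1313 to 3316 (3084 in the main setting).

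With the mean of probe sets, Nfe2l2 turned to -0.21 over all strains, -0.22 in steatosis strains, -0.20 in the others, -0.021 in their difference and -0.027 in the vehicle difference, since its probe sets oppose each other. In steatosis minus other strains, where none of these genes passed, Gss turned to 0.020 with scan date and 0.024 with the mean of probe sets, Txnrd1 to 0.022 with scan date, Gsr to -0.013 without strains with deaths, and Srxn1 to -0.022 without narrow arrays; the cause was not tested.

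Leaving out 1 animal number or strain at a time gave, in strains without steatosis, 995 to 1622 genes, 3 to 5 of the 10, and Nfe2l2 from -0.0088 to 0.11. It gave 0 to 1 genes for the vehicle difference by steatosis. For the interaction and the effects within strains, animal numbers alone were left out and no strain was. That gave 1313 to 2194 genes and 1 to 3 of the 10 for the interaction, and 12 to 13 member and strain pairs. The difference by steatosis ran from -0.087 to 0.030 for Gss, -0.011 to 0.10 for Gsr, -0.11 to 0.061 for Txnrd1, -0.063 to 0.14 for Srxn1 and -0.035 to 0.16 for Nfe2l2. In vehicle it ran from -0.016 to 0.053 for Gss and from -0.00023 to 0.075 for Gsr.

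Same-numbered vehicle and isoniazid animals mostly did not deviate together (111 pairs, r from -0.42 to 0.78, median -0.02, 23 above 0.1). The main tests did not pair animals by number, and these r cannot settle whether the numbers mark pairs. With the replicate block 3445 genes and 7 of the 10 passed over strains, 1906 genes and 2 of the 10 for the interaction (Gsr was lost, adjusted p = 0.115), and 21 member and strain pairs. The Srxn1 interaction held under 12 of 12 alternatives and that of Gsr under 3 of 12, none of which left out a strain. No detection calls were used here, so what signal over background limits was not tested.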
